A study of Xenopus tropicalis with 31 samples.

Results

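Windows of open chromatin that hold a transcription start site (TSS) were described across tadpole tail regeneration in Xenopus tropicalis. A window was taken where its listed distance to the nearest TSS was 0 and a gene was named for it, and its counts were joined by the window's identifier. The rule gave 6102 of 124349 windows, which is 4.91% of all windows and 5.2% of the 117398 windows with a named gene. They belong to 6092 genes, since 10 genes have a pair of windows, each pair overlapping by 37 to 156 bp. Of the 6102 windows, 4660 carry a gene symbol, 645 a LOC or MGC identifier and 797 only an annotation ID.

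ATAC-Seq marks open chromatin by the insertion of a transposase into DNA that nucleosomes leave free. The TSS of an active gene usually lies in such a gap, where general transcription factors and RNA polymerase assemble. Promoters of genes that all cells use tend to be open in all tissues, while distal enhancers carry much of the difference between cell types. Counts in a window therefore show how often the site was open over the cells sampled, and not how much RNA the gene made. In these bulk libraries, fewer cells with an open site and less opening per cell cannot be told apart.

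The sample labels give 1 reporter line (Xtr.Tg) for the samples of both tissues, with pax6:GFP, which marks neural progenitors of the spinal cord, and with cryga:RFP and actc1:RFP. The column names of the count table mark the all-tissue samples as WT. The paper states that GFP+ and GFP- cells of all-tissue samples were sorted into the same tube, so reporter-positive tadpoles were among them. Whether every all-tissue tadpole carried the transgene is not settled by the sources. The posterior part of the tail was cut off at NF stage 41, and cells of several tails were dissociated and sorted for each library. The pax6 libraries hold GFP+ cells from tails that were uninjured (n = 2 samples) or collected at 0 (n = 2), 6 (n = 3), 24 (n = 3) and 72 (n = 3) hours post amputation (hpa). The all-tissue libraries hold cells of every type, sorted with no GFP gate, from tails that were uninjured (n = 3) or at 0hpa (n = 2), 6hpa (n = 3), 24hpa (n = 3) and 72hpa (n = 3). Uninjured libraries came from amputated tail tips, and the others from the regenerated tissue. GFP protein can outlast the activity of its promoter, so the gate selects reporter-positive cells. Baseline below means the average of the uninjured and 0hpa groups of a tissue. The labels number the replicates but name no separate clutches, so p-values measure the spread between these samples.

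The 13 pax6 samples held 3069659 to 12130125 counts and the 14 all-tissue samples 4401013 to 12902654. A TSS window had a median of 36 counts in a sample, and the sample medians ran from 15 to 85. At these depths, a single window in a single sample is measured with wide counting error, and the comparisons rest on the groups. The defining markers gave few TSS windows. Of 10 markers fixed for neural progenitors, neurons, muscle and epidermis, only actc1 and cdh1 had a window holding their TSS, pax6, sox2, sox3, elavl3, tubb3, myod1 and tp63 had windows elsewhere only, and krt5 had none. Of the 12 windows nearest to pax6, 1 was more accessible in pax6 libraries (log2 fold change 1.5, adjusted p = 1.44e-12). The reporter holds a pax6 promoter too, and whether reads from that copy add to this window cannot be told here. At elavl3, 1 of 12 windows was more accessible (0.60, adjusted p = 0.0438), and 1 of 14 at the epidermal regulator tp63 was less so (-0.69, adjusted p = 0.00461). No window was called at sox2 (3 of 10 with a log2 fold change above 0), sox3 (7 of 16), tubb3 (0 of 1) or myod1 (1 of 2). The lowest median over TSS windows was that of all-tissue 0hpa replicate 1, at 3.63 counts per 1000000 (CPM), and the main counts, the list results and the medians at 0hpa are also given without it, a choice made after seeing the data.

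The TSS windows formed a narrow class of middling height. Levels are CPM, with sample totals scaled by the trimmed mean of M-values (TMM), and every window is 400 bp long, so levels can be compared between windows. Their median over 27 samples was 5.48 CPM, with an interquartile range of 4.60 to 6.53 CPM. Windows 1 to 1000 bp from a TSS had a similar median of 5.39 CPM but a wider interquartile range of 4.05 to 8.04 CPM. Windows over 100000 bp away had a median of 4.14 CPM. Very high windows were rarer among those holding a TSS, with 89 of 6102 over 20 CPM (1.46%), against 5.33% of all windows. The peak caller's score, the −log10 of a p-value or q-value at the summit, had a median of 6.56 in TSS windows and 5.24 in all windows.

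**Figure D1:**
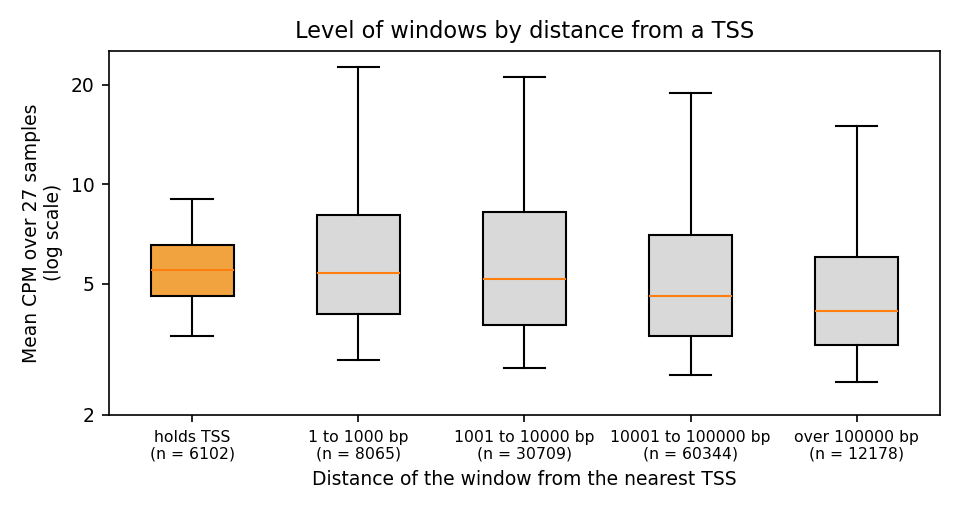
Level of windows by distance from the nearest TSS. The vertical axis is the mean CPM over 27 samples on a log scale; boxes show the median and interquartile range, and whiskers the 5th and 95th percentiles. The 6102 windows holding a TSS (orange) had a median of 5.48 CPM and a narrower box than the windows at any other distance (grey).

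Most of the highest TSS windows were not those of known genes. Of the 89 over 20 CPM, 70 had an annotation ID only, and 73.0% lay on unplaced scaffolds, where 744 of the 6102 lie. The 10 highest ran from 86.5 to 386 CPM. The highest, at Xetrov90026652m.g on scaffold_1618 from 31101 to 31500, had a mean of 386 CPM. Its log2 fold change was 0.17 in pax6 against all-tissue samples (adjusted p = 0.467). How reads that match several places were treated is not given in the sources used here. Among windows with a symbol, 9 were over 20 CPM, including tbc1d16 (32.7 CPM), a GTPase-activating protein for Rab proteins. On chromosomes, the share of windows that hold a TSS ran from 4.34% on chromosome 6 to 6.92% on chromosome 4.

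Counts in TSS windows took a smaller share of the counts in all windows in pax6 than in all-tissue samples. Reads outside the windows do not enter this share. The share was 3.67% ± 0.32 in pax6 samples (SD, n = 13) and 4.15% ± 0.62 in all-tissue samples (SD, n = 14), a difference of -0.47 percentage points (permutation test, two-sided, p = 0.0189). With 12 such share comparisons, the Benjamini-Hochberg adjusted p was 0.214, so the difference failed the correction. The pax6 shares ran from 2.88% to 4.12% and the all-tissue shares from 2.78% to 5.1%, so the tissues overlapped.

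The groups of largest share were the later all-tissue ones. In pax6 samples, the shares were 3.54% and 2.88% uninjured, 3.57% and 4.1% at 0hpa, 4.12%, 3.73% and 3.55% at 6hpa, 3.65%, 3.55% and 3.93% at 24hpa, and 3.68%, 3.58% and 3.88% at 72hpa. In all-tissue samples, they were 3.44%, 3.84% and 3.79% uninjured, 2.78% and 4.16% at 0hpa, 4.09%, 3.98% and 4.31% at 6hpa, 3.98%, 4.60% and 5.1% at 24hpa, and 4.26%, 4.64% and 5.09% at 72hpa. The pax6 samples showed no order with time, while each all-tissue sample at 72hpa lay above each baseline sample. The all-tissue share averaged 4.67% ± 0.42 at 72hpa (SD, n = 3) and 3.6% ± 0.52 at baseline (SD, n = 5), with p = 0.0357 in a two-sided exact permutation test, the smallest that 3 against 5 samples allow (adjusted p = 0.214). Averages at 24hpa were 4.56% ± 0.56 (SD, n = 3; exact permutation p = 0.0714 against baseline). In pax6 samples, the share was 3.72% ± 0.15 at 72hpa (SD, n = 3) and 3.52% ± 0.50 at baseline (SD, n = 4), with exact permutation p = 0.629. At 24hpa and at 72hpa every pax6 sample lay below every all-tissue sample, which gave exact permutation p = 0.1 at each time, the smallest that 3 against 3 samples allow. The share and the log10 of the total count had r = 0.348 and rho = 0.293 over 27 samples (permutation p = 0.0732 and 0.138, adjusted p = 0.22 and 0.414 over 3 sample sets), and r = 0.244 without the 2 samples of most extreme total. Within pax6 samples r was 0.397 and rho 0.165 (permutation p = 0.176 and 0.59), and within all-tissue samples r was 0.283 and rho 0.222 (permutation p = 0.324 and 0.445).

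**Figure D2:**
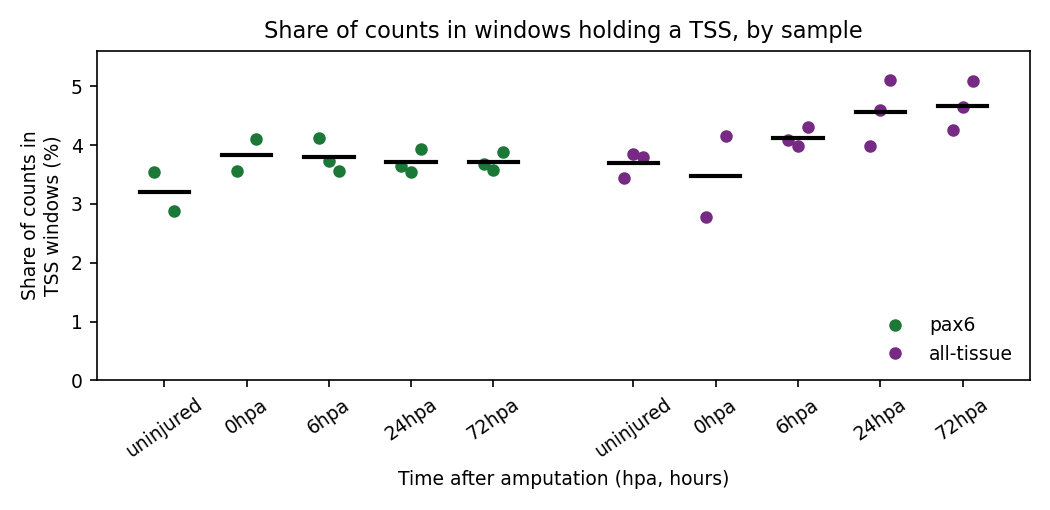
Share of each sample's counts in all windows that fell in the 6102 windows holding a TSS (vertical axis, percent) by tissue and time after amputation (horizontal axis, hpa). Points are samples and black bars group means. The 3 all-tissue samples at 72hpa sit between 4.26% and 5.09%, above the 5 all-tissue baseline samples, while the pax6 samples stay between 2.88% and 4.12%.

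The whole class was less accessible in pax6 than in all-tissue samples, relative to the other windows. Over 13 pax6 and 14 all-tissue samples, the median log2 fold change (pax6 over all-tissue) was -0.20 in TSS windows and 0.00 over all 124342 windows tested, and 14.1% of TSS windows had a value above 0. The shift faded with distance, with a median of -0.05 in windows 1 to 1000 bp from a TSS and 0.02 at 10 to 100 kb. It was larger in TSS windows of higher level, with medians of -0.09 in the lowest quintile by CPM and -0.27 in the highest, but it was -0.01 in the 89 windows over 20 CPM, and it was -0.22 in windows with a gene symbol and -0.10 in those with an ID only. Leaving out each sample in turn gave medians between -0.23 and -0.17. edgeR's quasi-likelihood test with Benjamini-Hochberg adjustment over all windows tested called 275 TSS windows less accessible in pax6 samples, against a background of 0.907% of all windows, and 4 more accessible, against 0.651% of all windows. No TSS window had all pax6 samples on one side of all all-tissue samples. Over all windows, every pax6 sample lay below every all-tissue sample in 18 (0.0145%) and above in 28 (0.0225%). The count of 0 is close to that share.

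**Figure D3:**
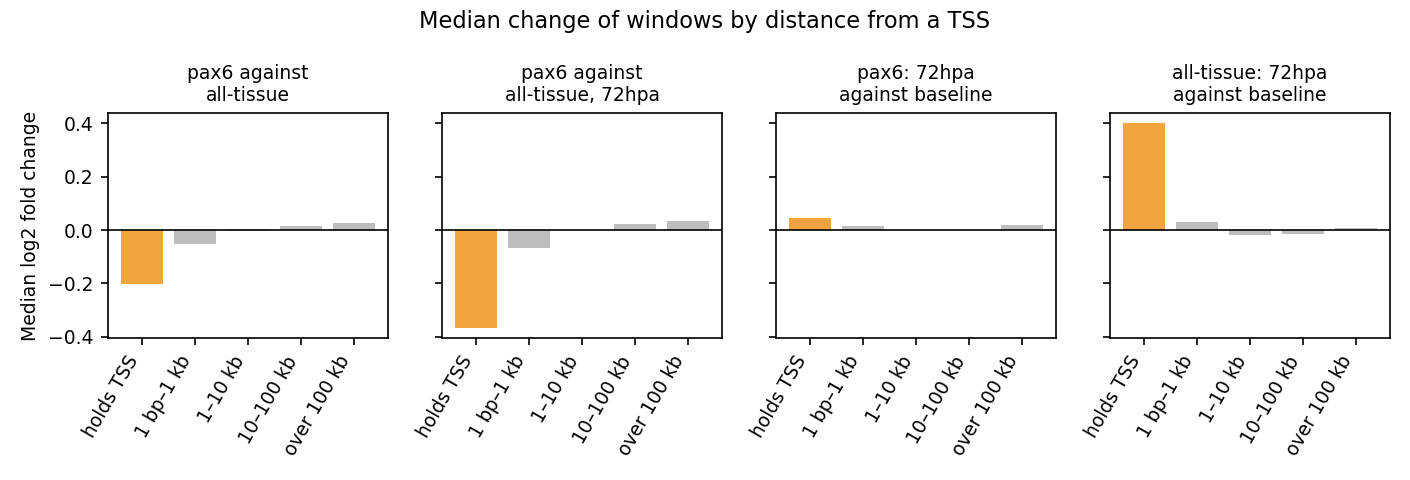
Median log2 fold change (vertical axis) of windows by distance from the nearest TSS (horizontal axis) in 4 comparisons, with windows holding a TSS in orange and the others in grey. Medians of TSS windows were -0.20 and -0.37 in pax6 against all-tissue samples (all times, and 72hpa), 0.04 at 72hpa against baseline in pax6 samples and 0.40 in all-tissue samples. Windows at other distances stayed near 0.

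The count of calls depends on single samples. Among all-tissue samples, it was 766 without 0hpa replicate 1 and 439 without uninjured replicate 1, and it was 135 and 159 without 72hpa replicates 3 and 2 and 142 without 24hpa replicate 3. Among pax6 samples, it was 182 without uninjured replicate 1, 179 without 6hpa replicate 3, 183 without 24hpa replicate 2 and 176 without 72hpa replicate 2. Over all windows, calls went from 1937 to 3323 without all-tissue 0hpa replicate 1. Of the 279 calls, 123 passed whichever sample was left out, and all 279 kept their direction each time. The 279 were picked by these same samples, so their kept direction is no separate support.

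The TSS window of actc1, cardiac muscle actin, was the most clearly raised in pax6 samples. It lies on chromosome 8 from 91483554 to 91483953 (v9.0 build). Its level had a lowest, median and highest value of 5.12, 8.29 and 12.6 CPM in pax6 samples, against 2.36, 3.63 and 5.53 CPM in all-tissue samples. All but 1 of the 13 pax6 samples lay above the highest all-tissue sample. The means were 8.8 ± 2.16 CPM in pax6 samples (SD, n = 13) and 3.5 ± 0.90 CPM in all-tissue samples (SD, n = 14), a log2 fold change of 1.32 (SE 0.12, adjusted p = 1.75e-10). The reporter transgene holds an actc1 promoter too, and reads from that copy and from the gene itself cannot be told apart here. Since some all-tissue tadpoles may have lacked that copy, a difference in the number of copies and a difference in accessibility cannot be told apart at this window either. The other 3 called windows of this direction were Xetrov90001072m.g on chromosome 1 (0.60, adjusted p = 0.00622), Xetrov90011065m.g on chromosome 4 (0.45, adjusted p = 0.0111) and npdc1.1 on chromosome 8 (0.43, adjusted p = 0.0373), a gene named for neural proliferation, differentiation and control. For npdc1.1 the lowest, median and highest levels were 3.59, 5.1 and 6.89 CPM in pax6 samples, against 2.76, 4.13 and 5.89 CPM in all-tissue samples, and 5 pax6 samples lay above the highest all-tissue sample.

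Among windows that were lower in pax6 samples, the largest fall of those named was at krt5.7, a keratin of the tadpole epidermis (chromosome 2, 145306765 to 145307164). Its lowest, median and highest levels were 2.78, 4.21 and 7.15 CPM in pax6 samples, against 3.82, 9.03 and 14.8 CPM in all-tissue samples. The lowest all-tissue value is that of 0hpa replicate 1, and 6 of the 13 pax6 samples were lower still. The log2 fold change was -1.0 (SE 0.16, adjusted p = 0.000313). Type II keratins lie in a cluster of similar genes, so reads may be shared between copies. The smallest p among the falls was at fkbp11, a prolyl isomerase of the endoplasmic reticulum (chromosome 2, 132861743 to 132862142). It had 3.03, 5.82 and 7.52 CPM as lowest, median and highest in pax6 samples, against 6.19, 9.67 and 11.1 CPM in all-tissue samples. For fkbp11, 8 of 13 pax6 samples lay below every all-tissue sample (log2 fold change -0.68, SE 0.11, adjusted p = 7.18e-05).

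Further named windows that fell in pax6 samples had log2 fold changes down to -0.68. At marveld2, which encodes tricellulin of tricellular junctions, the median was 3.92 CPM in pax6 samples and 6.63 CPM in all-tissue samples (log2 fold change -0.68, adjusted p = 0.00136). At traf6, an adaptor of Toll-like and interleukin receptors, it was 4.84 CPM in pax6 samples and 7.47 CPM in all-tissue samples (-0.66, adjusted p = 0.000553). The adaptor complex subunit ap4s1 had 5.55 CPM in pax6 samples and 9.03 CPM in all-tissue samples (-0.61, adjusted p = 0.000678), and 9 pax6 samples lay below every all-tissue sample. The actin-binding gelsolin relative flii had 5.26 CPM in pax6 samples and 9.49 CPM in all-tissue samples (-0.67, adjusted p = 0.00103). At dusp16, a phosphatase of MAP kinases, the median was 5.72 CPM in pax6 samples and 9.10 CPM in all-tissue samples (-0.66, adjusted p = 0.00209). The remaining named falls, LOC100496109, fam84a, kiaa1715, gpr107 and znf534, had log2 fold changes from -0.62 to -0.56. In all 5, and in those above, the ranges of the tissues overlapped.

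**Figure D4:**
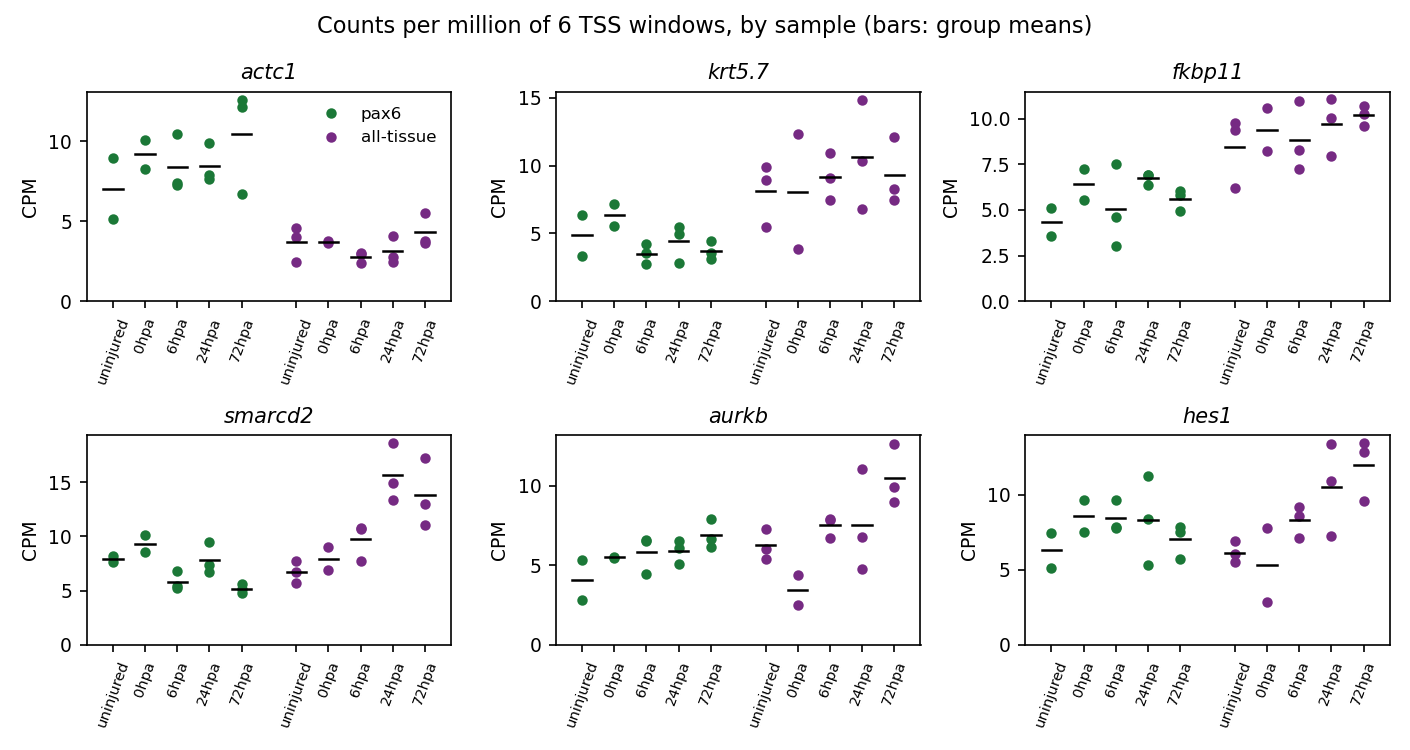
Level in CPM (vertical axis) of the TSS windows of actc1, krt5.7, fkbp11, smarcd2, aurkb and hes1 in every sample, by tissue and time (horizontal axis). Points are samples and black bars group means. actc1 lies higher in pax6 samples (medians of 8.29 and 3.63 CPM in pax6 and all-tissue samples), krt5.7 and fkbp11 lie lower, and smarcd2, aurkb and hes1 are higher at 72hpa than at baseline in all-tissue samples.

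Within single times, calls came late in the time course. A model of 10 groups called 0 TSS windows between tissues in uninjured samples (557 at an unadjusted p under 0.05, where all windows gave 7.28%, and 0 with DESeq2) and 0 at 0hpa (361, where all windows gave 5.71%, and 0 with DESeq2). At 6hpa it called actc1 alone (log2 fold change 1.61, adjusted p = 0.00323), against 0.0812% of all windows, and DESeq2 called 0. At 24hpa it called 15 windows lower in pax6 samples, against 0.033% of all windows, and actc1 higher (1.48, adjusted p = 0.0153), against 0.0113%. At 72hpa it called 133 lower, against 0.29% of all windows, and actc1 higher (1.33, adjusted p = 0.00603), against 0.0981%. DESeq2 called 14 TSS windows at 24hpa and 76 at 72hpa. Median log2 fold changes of TSS windows were -0.17 uninjured, 0.13 at 0hpa, -0.12 at 6hpa, -0.38 at 24hpa and -0.37 at 72hpa. Without all-tissue 0hpa replicate 1, the median at 0hpa was -0.09, so its direction rests on that sample. The 151 calls of the 5 times together became 21 and 31 without all-tissue 72hpa replicates 3 and 2, and 93 without pax6 72hpa replicate 3. They became 337 and 341 without all-tissue 0hpa replicates 1 and 3, where a group of 1 sample is assumed to vary like the others, and 296 without pax6 uninjured replicate 1.

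The clearest fall at 72hpa was at smarcd2, a subunit of SWI/SNF chromatin remodelling complexes (chromosome 10, 8610822 to 8611221). It had 4.79, 5.59 and 5.14 CPM in pax6 samples at 72hpa, against 11.1, 12.98 and 17.3 CPM in all-tissue samples. Every pax6 sample was lower than every all-tissue sample at that time (log2 fold change -1.40, SE 0.20, adjusted p = 0.000327). The same window had 7.35, 6.66 and 9.50 CPM in pax6 samples at 24hpa, against 13.4, 15.0 and 18.6 CPM in all-tissue samples (-1.03, adjusted p = 0.0126). At braf-like the log2 fold change at 72hpa was -1.40 (adjusted p = 0.00187), and at flii it was -1.39 (adjusted p = 0.00187).

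Relative to the other windows, TSS windows were more accessible in all-tissue samples at 72hpa than at baseline. The median log2 fold change of 72hpa over baseline was 0.40 in TSS windows and 0.00 over all windows tested, and 87.1% of TSS windows had a value above 0. In windows 1 to 1000 bp from a TSS the median was 0.03. By group, the median level of a TSS window in all-tissue samples was 5.1 CPM uninjured, 4.79 at 0hpa, 5.79 at 6hpa, 6.56 at 24hpa and 6.61 at 72hpa. The 0hpa value joins 3.63 CPM in replicate 1 and 5.82 CPM in replicate 3, so samples of 1 group also differed across the class. Whether the quality of the libraries had a part in the rise was not tested. Windows not holding a TSS had medians of 4.79 to 4.86 CPM in all 10 groups. They are most of the windows that set the scaling, so the scaling itself holds their median steady. Of the 6102 TSS windows, 2349 had their highest group mean in all-tissue 72hpa samples and 1797 in all-tissue 24hpa samples. In pax6 samples, the medians were 4.34 CPM uninjured, 5.33 at 0hpa, 5.25 at 6hpa, 5.09 at 24hpa and 5.15 at 72hpa.

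For 72hpa against baseline in all-tissue samples, the test called 364 TSS windows more accessible, against 0.629% of all windows, and 2 less accessible, against 0.104%. In 1324 TSS windows every 72hpa sample lay above every baseline sample, as in 3.91% of all windows, and in 47 every one lay below, as in 3.19%. Steps between neighbouring times had 0 calls each with the same test. At an unadjusted p under 0.05 there were 821 TSS windows for 6hpa against baseline (all windows gave 5.68%), 529 for 24hpa against 6hpa (4.37%) and 175 for 72hpa against 24hpa (3.98%). Counts from DESeq2 for these steps are not given here. A test for any difference over the 5 times called 45 TSS windows, against 0.0981% of all windows. The rise was 0.24 in the lowest quintile of TSS windows by level and 0.52 in the highest, and 0.44 in windows with a symbol and 0.11 in those with an ID only. In the 89 windows over 20 CPM the median was -0.06, with 2 called higher and 2 lower.

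The number of calls for 72hpa rests on a few samples. Calls numbered 7 and 47 without all-tissue 72hpa replicates 3 and 2, 16 without 0hpa replicate 1, 108 without uninjured replicate 1 and 1464 without 0hpa replicate 3. The pax6 72hpa replicate 3 enters only the shared estimate of spread, and without it there were 551. All 366 windows kept their direction each time, but they were picked by these same samples, so this is no separate support. Whichever all-tissue sample was left out, 5 passed: LOC100486545, Xetrov90010065m.g, letm2, tbc1d16 and tlk2. The median rise over TSS windows was between 0.28 and 0.63 without any 1 sample.

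LOC100486545 on scaffold_4016 had the smallest p of these. Its window, 865 to 1264, had 11.9, 13.5 and 15.3 CPM at 72hpa, against 5.38, 6.89 and 6.69 CPM uninjured and 3.82 and 5.6 CPM at 0hpa (log2 fold change 1.29, SE 0.20, adjusted p = 0.0015). At letm2, a relative of a mitochondrial inner membrane protein, the levels were 35.1, 38.2 and 38.7 CPM at 72hpa, against 20.5, 20.1 and 23.7 CPM uninjured and 10.3 and 21.9 CPM at 0hpa (0.98, SE 0.15, adjusted p = 0.00154). At tlk2, a kinase of chromatin assembly, they were 11.9, 14.1 and 15.0 CPM at 72hpa, against 5.61, 9.33 and 9.24 CPM uninjured and 3.82 and 6.48 CPM at 0hpa (1.07, SE 0.17, adjusted p = 0.00188). In each of these windows the 72hpa samples were all above the baseline samples, and the lowest of all was 0hpa replicate 1. For tbc1d16 the log2 fold change was 0.88 (adjusted p = 0.00161), for rell1, a relative of tumour necrosis factor receptors, 0.99 (adjusted p = 0.00214), and for Xetrov90009610m.g 1.01 (adjusted p = 0.00232). The 2 windows that fell were LOC100492583 (-0.74, adjusted p = 0.0311) and Xetrov90027493m.g (-0.42, adjusted p = 0.0465), both on scaffolds and over 20 CPM.

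In pax6 samples, no TSS window was called between any times with edgeR. For 72hpa against baseline, 535 TSS windows had an unadjusted p under 0.05, which is 8.77% of them against 7.36% of all windows, and DESeq2 called 0. Over any of the 5 times, 574 had such a p, where all windows gave 7.39%. The steps gave 384 for 6hpa against baseline (all windows gave 5.92%), 350 for 24hpa against 6hpa (7.68%) and 436 for 72hpa against 24hpa (7.1%). The median log2 fold change of TSS windows at 72hpa against baseline was 0.04, with a range from 0.00 to 0.18 without any 1 sample, and calls rose to 10 without pax6 uninjured replicate 1 and to 1 without pax6 72hpa replicate 1.

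Whether the tissues changed differently was tested directly. The F test of the tissue by timepoint terms called 1 TSS window, gtpbp1 (adjusted p = 0.0202), against 0.00161% of all windows. gtpbp1, a GTP-binding protein, had 3.30, 3.61 and 4.67 CPM in pax6 samples at 24hpa, against 9.31, 9.21 and 10.03 CPM in all-tissue samples. At 0hpa it had 7.17 and 8.46 CPM in pax6 samples, against 3.06 and 4.29 CPM in all-tissue samples, so the order of the tissues was turned. The change from baseline to 72hpa differed between tissues at 1 window, smarcd2 (adjusted p = 0.0182), against 0.00322% of all windows. Its log2 change was -0.71 in pax6 samples and 0.91 in all-tissue samples, a difference of -1.61 (SE 0.26). Over TSS windows, the median difference in change was -0.35, and 451 had an unadjusted p under 0.01, where all windows gave 1.84%. The smarcd2 call was lost without all-tissue uninjured replicate 1, 0hpa replicate 1 or 72hpa replicate 3, and without pax6 uninjured replicate 1, 0hpa replicate 2 or 0hpa replicate 3, each leaving 0 calls, and 158 windows were called without all-tissue 0hpa replicate 3. The gtpbp1 test gave 0 calls in the absence of 0hpa replicate 1 or 24hpa replicate 3 of all-tissue, or of 0hpa replicate 3 or 24hpa replicates 1 or 2 of pax6. It gave 50 calls without all-tissue 0hpa replicate 3, and 7 without pax6 uninjured replicate 1.

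Because the class moved as a whole, each comparison was also scaled to the TSS windows alone, which sets their median near 0 and shows which members moved more or less than the class. That scaling moved the median of all windows by 0.19 in pax6 against all-tissue samples and by -0.41 at 72hpa against baseline in all-tissue samples. With it, pax6 against all-tissue samples gave 61 TSS windows higher, against 6.1% of all windows, and 37 lower, against 0.137%, in place of the 4 and 275 above. For 72hpa against baseline in all-tissue samples it gave 80 higher, against 0.136% of all windows, and 210 lower, against 13.5%, in place of 364 and 2. The direction of a single promoter is therefore given relative to all windows unless stated.

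The median of epidermis and epithelium genes lay below that of the class in pax6 samples. Their 22 TSS windows had a median log2 fold change of -0.36, against -0.20 over all TSS windows, and -0.15 when scaled to the class. Of the 22, 5 fell and 0 rose, where 4.51% of all TSS windows were called lower, and 1 of the 22 was called lower when scaled to the class. Without all-tissue 0hpa replicate 1, 9 of the 22 fell, while calls in all TSS windows went from 279 to 766. Falls in most other lists also rose without it, as given below. The 5 falls with all samples include dlx5, a homeodomain factor (-0.67, adjusted p = 0.00504), the protease inhibitor spint2 (-0.60, adjusted p = 0.0132), the tight junction protein ocln (-0.56, adjusted p = 0.0245) and the epithelial splicing regulator esrp1 (-0.54, adjusted p = 0.0367). Over 37 alternatives dlx5 kept its call in each, while spint2 lost it in 1 (adjusted p up to 0.0665), ocln in 4 (up to 0.0894) and esrp1 in 16 (up to 0.121). At dlx5 the lowest, median and highest levels were 1.95, 4.72 and 5.72 CPM in pax6 samples, against 4.47, 6.82 and 10.9 CPM in all-tissue samples. At cdh1, the epithelial cadherin, the log2 fold change was -0.55 (adjusted p = 0.0565). Whether the makeup of cells in the all-tissue samples, or the quality of the libraries, had a part in the shift of the class was not tested.

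Neuronal genes had the highest median of the 17 lists in pax6 samples. Their 21 TSS windows had a median of 0.03, and 0.22 when scaled to the class. Single windows ran from -0.38 to 0.44, with 12 above 0 and 9 below. None was called in either direction relative to all windows, and 1 was called higher when scaled to the class. The axon guidance ligand slit1, at the upper end of this range, was named after its values were seen. It had 2.22, 4.94 and 7.79 CPM as lowest, median and highest in pax6 samples, against 2.31, 3.59 and 4.77 CPM in all-tissue samples (log2 fold change 0.44, adjusted p = 0.074). At slit1, 8 pax6 samples lay above the highest all-tissue sample, and 3 of 37 alternatives called it (adjusted p down to 0.0103). Neural progenitor genes, 23 windows, had a median of -0.17, which is 0.03 when scaled to the class, and only id2, an inhibitor of bHLH factors, was called (-0.60, adjusted p = 0.0131), with 1 called higher and 1 lower when scaled to the class. Of the muscle list only 6 genes had a TSS window, and the median of -0.13 became 0.06 when scaled to the class, with actc1 the 1 rise. Notochord, cartilage and fibroblast genes (12 windows) had a median of -0.12, or 0.09 scaled to the class, and blood, immune and vessel genes (16 windows) -0.16, or 0.05 scaled, with none called in either list relative to all windows and 1 notochord, cartilage and fibroblast window called higher when scaled to the class. The 7 hox windows had a median of -0.15, or 0.05 scaled to the class, and none called. Without all-tissue 0hpa replicate 1, neural progenitor genes had 2 falls, hox genes 0 and the other lists of this paragraph 1 each. Calls in all TSS windows then went from 279 to 766.

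The medians of 5 lists of genes used by all cells lay close to that of the class. Of all TSS windows, 4.51% were called lower in pax6 against all-tissue samples, to be set beside the falls in each list. In pax6 against all-tissue samples, ribosomal protein genes (32 windows) had a median of -0.22 with 1 fall, rpl23a (-0.44, adjusted p = 0.0478). Splicing factors (34 windows) had -0.21, the proteasome (20 windows) -0.25, the respiratory chain and ATP synthase (30 windows) -0.20 and translation factors (23 windows) -0.18, with none called. Scaled to the class, these 5 medians lay between -0.03 and 0.01. The mitochondrial ribosome (33 windows) had -0.10, or 0.11 scaled to the class, and 2 falls, mrpl45 (-0.46, adjusted p = 0.0247) and mrpl41 (-0.41, adjusted p = 0.0343). Cell cycle and replication genes (43 windows) had -0.21 with 1 fall, and 0.00 scaled to the class. Histones and chromatin regulators (37 windows) had -0.32 with 3 falls, immediate early and stress genes (40 windows) -0.33 with 3, including klf2 (-0.54, adjusted p = 0.0104), and signalling pathway genes (48 windows) -0.25 with 3, including the BMP transducer smad9 (-0.55, adjusted p = 0.0155) and the ubiquitin ligase nedd4l (-0.42, adjusted p = 0.0343). Scaled to the class, these 3 medians were -0.11, -0.11 and -0.05. Without all-tissue 0hpa replicate 1, calls in all TSS windows went from 279 to 766. These 3 lists then had 9 falls each, and cell cycle and replication genes had 4. Ribosomal proteins, the proteasome, the respiratory chain and the mitochondrial ribosome then had 3 each, splicing factors 2 and translation factors 1.

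**Figure D5:**
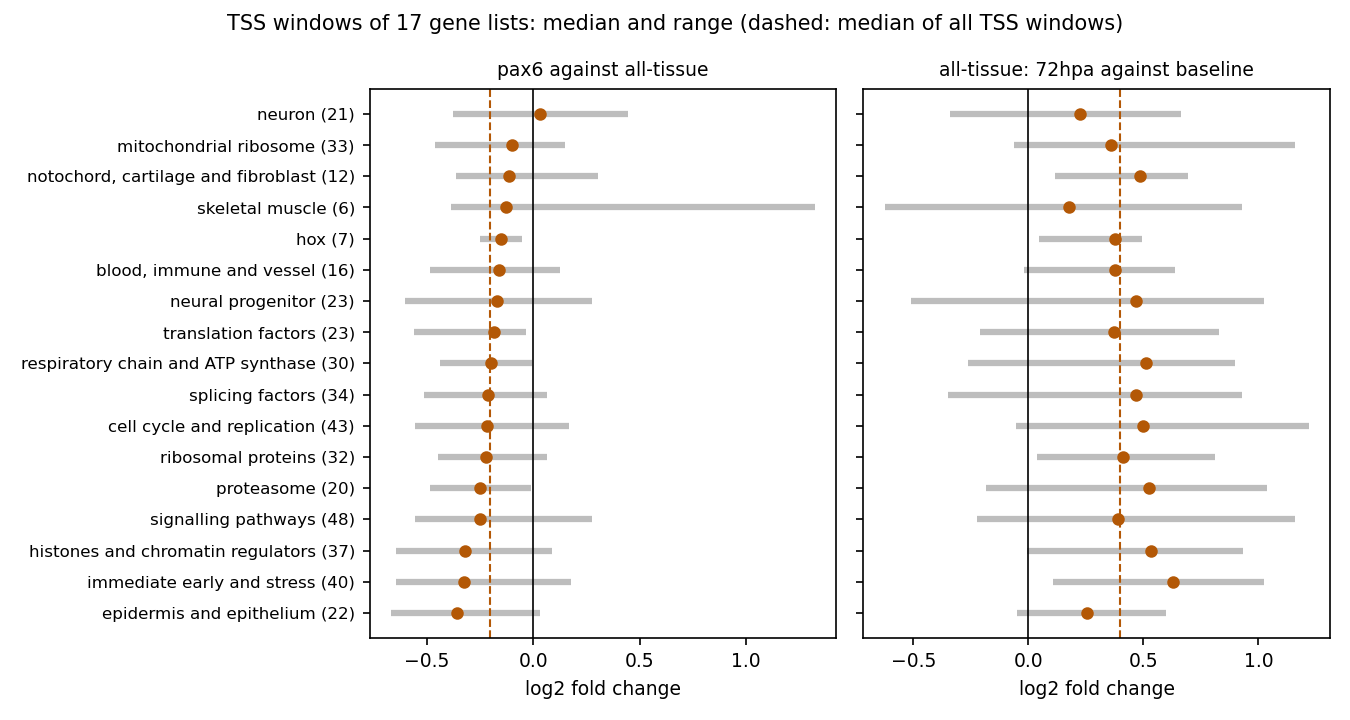
TSS windows of 17 gene lists in pax6 against all-tissue samples (left) and in all-tissue samples at 72hpa against baseline (right). The horizontal axis is the log2 fold change relative to all windows; dots are list medians, grey bars the range of members, dashed lines the medians of all TSS windows (-0.20 and 0.40), and numbers in brackets the windows in a list. Epidermis and epithelium has the lowest median on the left (-0.36), and immediate early and stress genes the highest on the right (0.63).

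At 72hpa in all-tissue samples, immediate early and stress genes had the highest median of the lists. Their 40 TSS windows had a median log2 fold change of 0.63 over baseline, or 0.24 scaled to the class, and 8 rose. Of all TSS windows 5.97% were called higher in this comparison, and 2 of the 40 were called higher when scaled to the class. Without 0hpa replicate 1 the list had a median of 0.48 and 0 rises. The AP-1 subunit jun had 14.3, 13.1 and 18.7 CPM at 72hpa, against 5.84, 9.33 and 9.77 CPM uninjured and 5.54 and 10.6 CPM at 0hpa (0.87, SE 0.18, adjusted p = 0.0108). Its relative jund had a log2 fold change of 1.02 (adjusted p = 0.0137), and ddit3, a transcription factor of the unfolded protein response, 0.97 (adjusted p = 0.013). The median of this list in pax6 samples at 72hpa over baseline was 0.18, and none of its windows was called there.

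Of 43 cell cycle and replication windows 4 rose, where 5.97% of all TSS windows did, and 3 were called higher when scaled to the class. The list had a median of 0.50, or 0.11 scaled to the class, and without 0hpa replicate 1 it had a median of 0.35 and 1 rise. The mitotic kinase aurkb had 8.95, 9.89 and 12.6 CPM at 72hpa, against 5.38, 7.30 and 6.02 CPM uninjured and 2.48 and 4.40 CPM at 0hpa (1.15, SE 0.20, adjusted p = 0.0032). The phosphatase cdc25c, which activates the mitotic kinase CDK1, had 7.61, 8.65 and 12.37 CPM at 72hpa, against 4.81, 2.64 and 4.68 CPM uninjured and 2.48 and 4.95 CPM at 0hpa (1.22, SE 0.25, adjusted p = 0.00988). The replicative helicase subunit mcm7 (1.04, adjusted p = 0.0209) and the origin recognition subunit orc5 (0.86, adjusted p = 0.0294) also rose. In all 4 windows the 72hpa samples lay above every baseline sample.

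Several other lists had 1 to 5 windows that rose at 72hpa, beside the 5.97% of all TSS windows. Of 37 histone and chromatin regulator windows 5 rose (median 0.53, or 0.14 scaled to the class), among them smarcd2 (0.91, adjusted p = 0.00322), the histone demethylase kdm6a (0.93, adjusted p = 0.0178), the architectural protein hmgb1 (0.81, adjusted p = 0.0216) and the deacetylase hdac2 (0.89, adjusted p = 0.0378), and none was called higher when scaled to the class. Of 48 signalling windows 4 rose (median 0.39, or -0.02 scaled to the class), among them the ligand bmp2, at 9.35, 8.65 and 11.7 CPM at 72hpa, against 4.58, 7.30 and 5.62 CPM uninjured and 2.86 and 3.74 CPM at 0hpa (1.16, SE 0.20, adjusted p = 0.00278), and smad2, a transducer of activin and nodal signals (0.97, adjusted p = 0.0128), and 3 were called higher and 1 lower when scaled to the class. Of 23 neural progenitor windows 3 rose (median 0.47, or 0.07 scaled to the class), namely the Notch target hes1 (1.02, adjusted p = 0.0105), the receptor notch2 (0.80, adjusted p = 0.0393) and sox4 (0.81, adjusted p = 0.0471). Scaled to the class, 1 of the 23 was called higher and 1 lower. The proteasome (median 0.52), respiratory chain (0.51), splicing (0.47) and mitochondrial ribosome (0.36) lists had 2 rises each, including psmc6 (1.04, adjusted p = 0.00847) and mrps30 (1.16, adjusted p = 0.00777), and ribosomal proteins (0.41) had 1. Scaled to the class, these 5 medians were 0.12, 0.11, 0.08, -0.03 and 0.04, and 1 proteasome and 1 mitochondrial ribosome window were called higher. Without 0hpa replicate 1 the histone and chromatin regulator and signalling lists had 1 rise each and the other lists of this paragraph 0, with medians from 0.24 to 0.45.

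The medians of epidermal, neuronal and muscle windows lay below that of the class (0.40) at 72hpa, though single members reached 0.60, 0.66 and 0.93. Medians were 0.26 for epidermis and epithelium, with 0 of 22 called, 0.23 for neurons, with 0 of 21 called, and 0.18 for muscle, where pygm, muscle glycogen phosphorylase, rose (0.93, adjusted p = 0.0167). These 3 medians were -0.13, -0.17 and -0.21 when scaled to the class. With that scaling 0, 2 and 1 of their windows were called lower, where 210 of all 6102 TSS windows were. Translation factors (median 0.37), notochord, cartilage and fibroblast (0.49), blood, immune and vessel (0.38) and hox genes (0.38) had none called relative to all windows. Their medians scaled to the class were -0.02, 0.09, 0.00 and -0.04, with 1 translation factor window called lower. Without a given sample, the number of the 42 named 72hpa calls that still passed ran between 4 (72hpa replicate 3) and 42 (24hpa replicate 1). It was 11 without 0hpa replicate 1, 15 without 72hpa replicate 2 and 19 without uninjured replicate 1. All 42 kept their direction, which for windows picked by these same samples is no separate support.

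Of genes that the study names, some had a TSS window. Besides actc1, the ubiquitin ligase nedd4l was called, with a median of 7.19 CPM in pax6 samples and 8.84 CPM in all-tissue samples (log2 fold change -0.42, adjusted p = 0.0343), and 10 of 37 alternatives lost that call. The zinc finger gene sall1 (0.27, adjusted p = 0.277) and runx2, a factor of bone and blood lineages (-0.20, adjusted p = 0.406), were not called. At odc1, ornithine decarboxylase of polyamine synthesis, the lowest, median and highest levels were 2.56, 5.7 and 7.94 CPM in pax6 samples, against 3.63, 7.11 and 10.9 CPM in all-tissue samples (log2 fold change -0.33, adjusted p = 0.181). At the homeobox gene pbx3 they were 0.77, 3.27 and 5.53 CPM in pax6 samples, against 2.27, 3.22 and 5.49 CPM in all-tissue samples (0.13, adjusted p = 0.776). The BMP antagonist nog (-0.15), the ligand wnt11 (0.14), the Hedgehog receptor ptch1 (-0.19), gata3 (-0.24), foxd1 (-0.29), rapgef2 (-0.11) and dbn1 (-0.14) were not called, and neither was any of these at 72hpa against baseline in all-tissue samples.

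Other windows around the same genes had smaller median shifts than the TSS windows, except around the 4 promoters higher in pax6 samples. Around those 4 (median 0.53), 6 windows of 2 genes at 1 to 10 kb had a median of 0.69, with 5 called higher. The 15 windows farther away had a median of 0.10. For the 275 promoters lower in pax6 samples (median -0.52), other windows assigned to those genes had medians of -0.09 at 1 to 1000 bp (93 windows), -0.03 at 1 to 10 kb (309 windows) and -0.01 farther away (845 windows). Around all members (median -0.20), which were not picked by a call, these medians were -0.06, -0.01 and 0.02. For the 364 promoters higher at 72hpa in all-tissue samples (median 0.89), other windows had medians of 0.11 (105 windows), 0.02 (313 windows) and -0.01 (999 windows), against 0.04, -0.02 and -0.01 around all members (median 0.40). The 275, the 364 and the 4 were picked by calls in these same samples and the other windows were not. A gap between them therefore follows in part from the picking, and only the values around all members are free of it. Of the 275 promoters lower in pax6 samples, 30 were also among the 364 (10.9% of the first and 8.24% of the second). The comparisons share the all-tissue samples at 72hpa and baseline, so this count is a description.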

How the data were processed

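ATAC-Seq libraries of sorted tail cells were aligned by the authors to Xenopus tropicalis v9.0 with Bowtie2 after Trim Galore, duplicates were removed, and peaks were called with MACS2 on the merged reads of all libraries. The deposited table gives whole-number counts of fragments (up to 2000 bp, featureCounts) per 400 bp window around a summit for 31 libraries. The deposited summit list gives each window's score as −log10 of a p-value or q-value, and a deposited annotation table gives the nearest gene and the distance to its TSS. Columns of that table, and of another deposited file, that hold the authors' own fold changes and p-values were not used. Since peaks were called on pooled reads, a window need not be a peak in each library, and a TSS with no summit within reach has no window.

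Pax6 0hpa replicate 1 and pax6 uninjured replicate 3 held 11 and 143 counts and were left out. Second libraries were summed with all-tissue uninjured replicate 1 and with all-tissue 72hpa replicate 2, as in the study, although at 72hpa the label of that library points to replicate 1. This left 27 samples in 10 groups. Windows reaching 1 CPM in 2 or more samples (124342 of 124349, and all 6102 TSS windows) were tested with edgeR 4.0.16 (TMM, robust quasi-likelihood F test) in R 4.3.3, with Benjamini-Hochberg adjustment over all windows tested and an adjusted p under 0.05 as the call. Tissues were compared in a model of 2 groups, and times in a model of 10 groups. Shares were compared by permutation tests (100000 resamples, or exact, scipy 1.17.1). On simulated counts of 124339 windows, pax6 against all-tissue recovered 92% and 100% of windows changed by 0.6 and 1 on the log2 scale, with 9 false calls. All-tissue 72hpa against baseline recovered 13% and 84%, with 10 false calls. The simulated counts were independent between windows, had 1 dispersion for all windows and held no shift of the class between samples. Changes were planted only in TSS windows above a floor of mean CPM. In the data, the sample medians of TSS windows had an SD of 0.18 within groups on the log2 scale. The recovery and false calls therefore describe the simulated setting only.

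Windows were picked for naming by rule, and the text names only part of them. The rule took those of smallest p among calls (up to 12 a direction between tissues, 6 a direction for times, 8 for the interaction) and the 10 of highest CPM. It also took members the study names, and up to 4 called members of each of 17 gene lists, or the 2 highest where none was called. Which of these the text names was not fixed by the rule. Calls within 24hpa and 72hpa, and cdh1, sall1, slit1 and pbx3, were added after their values were seen. The TSS windows, lists and tests were chosen with earlier results of these data known. Alternatives were DESeq2 1.42.0 and its size factors, TMM from TSS windows alone, no filter, a likelihood ratio test, a timepoint term, a replicate block, other sample sets and each sample left out. Same-numbered pax6 and all-tissue samples of a time (12 pairs) had correlations of -0.08 to 0.13 in their deviations, with 1 over 0.1. Counting error in single windows keeps such values low, so they cannot exclude a batch shared by replicate number. In all-tissue samples, replicate 3 had the largest share of counts in TSS windows at 0hpa (4.16%), 6hpa (4.31%), 24hpa (5.10%) and 72hpa (5.09%), but not when uninjured. The numbers were not used to pair samples in the main models. Gene symbols are those of the annotation table. Coordinates are those of the files, counted from 1, and window sequences were not analysed here.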

Additional observations from a re-analysis of the deposited data

Results flagged for a closer look

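In 44 groups of 4 or 5 baseline values of named windows, 3 samples stood apart from the rest of their group, and chance flags about 1 group in 20. In all-tissue baseline samples, letm2 was lowest in 0hpa replicate 1, at 10.31 CPM. In the same library mcm7 was lowest, at 2.864 CPM. At actg1, a cytoplasmic actin, uninjured replicate 2 was highest of the baseline samples, at 11.56 CPM.

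Tissues differed in their change over time at 2 windows. At gtpbp1 the F test of the tissue by timepoint terms gave an adjusted p of 0.0202. At smarcd2 the difference in change between tissues, 72hpa against baseline, had an adjusted p of 0.0182, with a log2 change of -0.71 in pax6 samples and 0.91 in all-tissue samples.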

How the results depend on the processing

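Of 2372 alternatives to 80 results for single windows, 1955 left the outcome as it was, called or not. A call was lost in 404 and gained in 13, and none turned a direction. Some windows count in 2 comparisons, and cdh1, sall1, slit1 and pbx3 were among those not called at the start. The called windows were picked by these same samples, so their kept direction is no separate support. TSS windows called in pax6 against all-tissue samples numbered 279, and 98 with TMM factors from TSS windows alone, 120 without the second libraries, 507 with the likelihood ratio test, 455 with timepoint as a term, 778 with the 23 libraries the study's comparisons use and 1047 at an unadjusted p under 0.01 (135 to 766 without any 1 sample). Within times, the 151 calls became 79 with that scaling, 21 without second libraries, 261 with the replicate block and 2213 at p under 0.01 (21 to 341). For 72hpa against baseline in all-tissue samples, 366 calls became 60 without second libraries, 784 with the replicate block, 670 in a model of that tissue alone, 30 with uninjured samples alone as the baseline and 1578 at p under 0.01 (7 to 1464). In pax6 samples 0 became 131 at p under 0.01 (0 to 10). The 1 interaction call became 0 with TSS-window scaling, 0 without second libraries, 2 with no filter, 2 with the second 72hpa library in replicate 1, 3 with the replicate block and 316 at p under 0.01 (0 to 50). The 1 difference in change, an analysis added after seeing the data, became 0 without second libraries and 451 at p under 0.01 (0 to 158). At an unadjusted p under 0.01, all 124342 windows gave 7466 between tissues and 4942 for 72hpa against baseline in all-tissue samples. Within the 5 times, in order, all windows gave 2445, 1586, 3404, 2592 and 4933. They gave 2220 for 72hpa against baseline in pax6 samples, 1923 for the interaction and 2292 for the difference in change. With TSS-window scaling the medians became 0.0059 between tissues, 0.0064 at 72hpa and 0.0126 for 72hpa against baseline in all-tissue samples, by construction. Without any 1 sample they ran from -0.2319 to -0.1652, -0.4231 to -0.2856 and 0.283 to 0.6311, and in pax6 samples from -0.0017 to 0.1813. The share difference between tissues ran from -0.5785 to -0.4001 (permutation p = 0.00104 to 0.0379), and that of 72hpa against baseline from 0.849 to 1.2642 (exact permutation p = 0.0571 to 0.0952, where the smaller groups cannot reach 0.05). Whether same-numbered samples share a batch is not settled, so calls under the block are given as values only. The causes of other changes were not tested. At a median of 36 counts a window, small changes in a single window are easily missed. The simulation, where 13% of changes of 0.6 were recovered for 72hpa, describes its own setting and does not measure this in the data.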
